A study of Rattus norvegicus with 4 samples.

Results

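Col10a1 encodes the alpha chain of type X collagen, a short-chain collagen laid down by hypertrophic chondrocytes, and was followed here across diabetic and control fracture callus of the rat. The gene is 1 of 20174 genes with a probe on the arrays, where it has 1 spot, under the Ensembl identifier ENSRNOG00000000545. It was chosen on its measured signal in all 4 groups, for a strong increase in diabetic callus, day 11 over day 5, beside a control signal near background. Its levels, the differences between them and the places of those differences among all genes therefore describe the choice, and no test is given for them. The identifier was taken as Col10a1 by that choice. The array files carry no gene symbols and the reference table used here lists no Ensembl identifiers, so the pairing was not checked against a second source.

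Callus, the repair tissue around a broken bone, came from male Sprague-Dawley rats aged 12 weeks with a closed transverse fracture of the right femoral shaft, stabilised by a 1.25 mm wire in the marrow canal. The diabetic rats had received a single intravenous dose of 40 mg/kg streptozotocin, which destroys the beta cells of the pancreas, and had blood glucose over 300 mg/dl. The control rats had received sodium chloride as a sham injection and had normal blood glucose. The 4 groups were diabetic day 11, control day 11, diabetic day 5 and control day 5 after fracture. Tissue of 5 animals per group was pooled and read on 1 array, so the spread between animals is not known and no difference below has a replicate check. The study compared the groups to describe gene expression in a model of impaired fracture repair.

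A closed shaft fracture heals largely through cartilage. Chondrocytes in the soft callus divide, then enlarge into hypertrophic cells that secrete type X collagen, and the mineralised matrix around them is invaded by vessels and replaced by bone. Type X collagen forms a network in the matrix around the hypertrophic cells and is widely used as their marker. The transcription factor RUNX2 is a known activator of the gene in mouse and human. Other markers of callus cell types could not be set beside Col10a1, because none of the other identifiers could be paired with a symbol. In a pooled tissue, fewer cells that make a transcript and less transcript per cell cannot be told apart.

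The sequence around the start of the gene is shown for its location and its core promoter. It runs from 250 bases before to 50 bases after the annotated RefSeq start, on the plus strand of GRCr8 at chr20:39737286-39737585, and was matched by symbol. Capitals mark the TATAAA motif.

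Col10a1 promoter: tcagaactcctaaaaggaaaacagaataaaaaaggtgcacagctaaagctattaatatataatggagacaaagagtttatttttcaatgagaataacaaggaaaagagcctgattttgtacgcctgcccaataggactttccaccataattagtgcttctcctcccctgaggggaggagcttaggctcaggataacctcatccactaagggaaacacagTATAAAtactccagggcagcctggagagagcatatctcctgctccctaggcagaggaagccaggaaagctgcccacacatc

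A search on both strands covered TATAAA, the TATA box. It also covered ACCACA, the core that RUNX factors bind, and the AP-1 motif TGACTCA, and no match overlapped another. TATAAA occurred once, on the strand of the gene, with its first base 31 bases before the annotated start. Of 33469 rat promoters of the same length, 14.2% hold it at any position on either strand, and 8.80% on the strand of the gene. ACCACA had 0 matches in this window, while 17.3% of the promoters hold it on either strand. The AP-1 motif also had 0 matches, while 4.63% hold it on either strand. In the same assembly Col10a1 lies within the span of Nt5dc1, which is annotated on the opposite strand. The sequence of the array probe is not given in the sources used here, so it is not known whether the probe could also bind RNA of Nt5dc1.

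On day 11 the Col10a1 spot had a median intensity of 11073 scanner units in diabetic callus, against 55.6 in control callus. On day 5 it had 477.5 in diabetic callus, against 47.4 in control callus. In uncorrected spot intensity the order of the arrays was therefore diabetic day 11, diabetic day 5, control day 11 and control day 5. Both control arrays lay far below both diabetic arrays, while the order of the control arrays depends on the background used, as given below. Blank spots, which carry no probe, averaged 38.4 to 40.9 on the 4 arrays. The spot was 287 times the blank mean in diabetic callus and 1.36 times in control callus on day 11. On day 5 it was 12.4 times the blank mean in diabetic callus and 1.22 times in control callus.

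**Figure D1:**
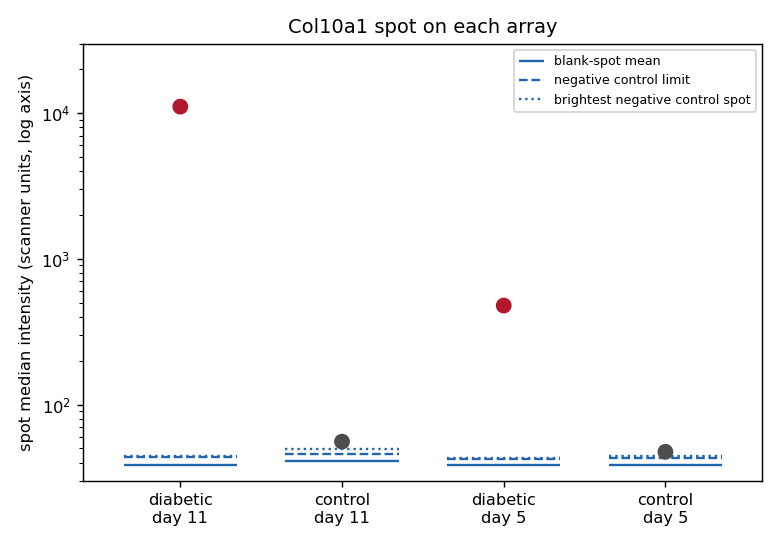
Median intensity of the Col10a1 spot in scanner units (log axis) on each of the 4 arrays, 1 point per array, in red for diabetic and grey for control callus. Blue lines give the blank-spot mean, the mean plus 2 SD of the negative control spots and the brightest negative control spot of the same array; the points of 55.6 and 47.4 in control callus lie just above them, and those of 11073 and 477.5 in diabetic callus far above.

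The control signals were low but not at the floor of the array. In control callus the spot exceeded all 96 negative control spots on each day, whose brightest reached 49.8 on day 11 and 44.6 on day 5. It also exceeded the mean plus 2 SD of those spots, 45.6 on day 11 and 43.2 on day 5. Of 5808 blank spots, 4 were at least as bright as Col10a1 in control callus on day 11, and 3 were so on day 5. A weak signal was thus measured in control callus, and its size depends closely on the level taken as background. Whether it comes from Col10a1 RNA or from unspecific binding was not tested.

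Among the 20161 gene probes kept on each array, Col10a1 was placed 87th in brightness in diabetic callus on day 11, with 0.427% of the probes brighter. It was placed 10939th in control callus on day 11, with 54.3% of the probes brighter. On day 5 it was placed 2008th in diabetic callus, with 9.95% brighter, and 12265th in control callus, with 60.8% brighter. These places order probes by brightness and are not amounts of RNA, since probes bind with unequal strength.

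After subtraction of the blank-spot mean, the net signal on day 11 was 11034 in diabetic callus and 14.8 in control callus, a ratio of 747. On day 5 the net signal was 439.2 in diabetic callus and 8.61 in control callus, a ratio of 51.0. The authors' deposited table, which holds scaled net signals, lists 6601 in diabetic and 7.58 in control callus on day 11, a ratio of 871. For day 5 the authors' deposited table lists 307.4 in diabetic and 4.90 in control callus, a ratio of 62.7. Ratios of net signals divide by values of 15 or less, and small shifts in the background move them strongly.

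A more guarded scale adds an offset of 50 to each background-corrected intensity before quantile normalization, which shrinks the differences of dim genes. On this scale the log2 signal on day 11 was 13.45 in diabetic and 6.05 in control callus, a difference of 7.41 or 170-fold. This was the largest positive difference among 16732 genes that passed the blank-spot limit on either array; in normexp with the local background it was placed 3rd, at 5.37, and with the local background subtracted 4th, at 9.001. The next 5 genes had differences of 6.29 to 5.65. Of these genes, 2.16% were higher in diabetic callus by 2-fold or more. On day 5 the log2 signal was 9.07 in diabetic and 5.92 in control callus, a difference of 3.15 or 8.90-fold. Only 2 of 17030 genes had a larger positive difference on day 5, at 3.61 and 5.43, and the next 5 genes below had 2.81 to 2.15. By 2-fold or more, 0.534% of the genes were higher in diabetic callus on that day. The day 5 difference depends on the background used: normexp with the local background column gave a log2 difference of 0.86, under 2-fold, placed 503rd among the genes. With the local background subtracted it was 3.43, placed 181st. It was placed 1st with the blank mean subtracted, at 5.98, and in the authors' deposited table, at 5.97.

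**Figure D2:**
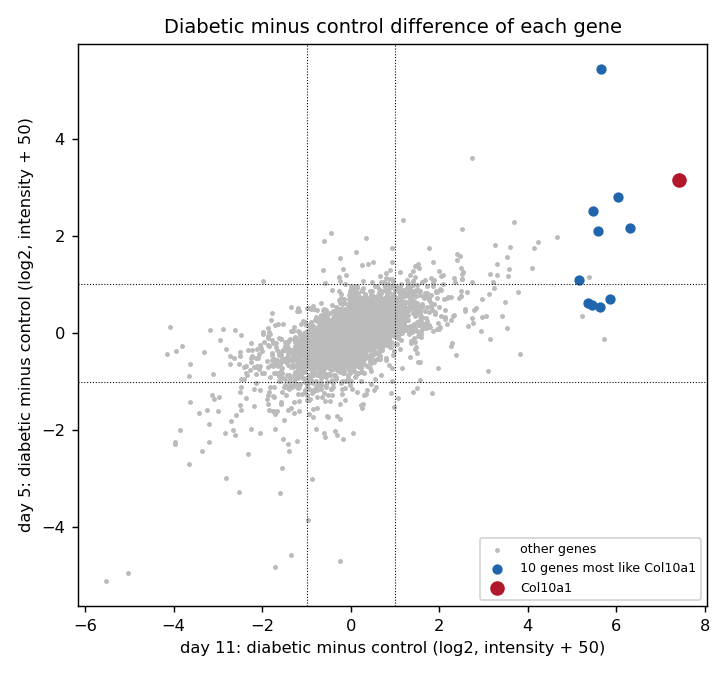
Diabetic minus control log2 difference of each gene (intensity + 50 scale) on day 11 (horizontal axis) and day 5 (vertical axis), with dotted lines at 2-fold; each point is 1 gene measured on 1 pair of arrays per day. Col10a1, in red, lies at 7.41 on day 11 and 3.15 on day 5, and the 10 genes with the nearest profile are in blue.

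The difference between the days in diabetic callus is the one the gene was picked for. There the day 11 signal of 13.45 stood against 9.07 on day 5, a log2 difference of 4.38 or 20.9-fold, and 8 of 16803 genes had a larger positive difference. The place of Col10a1 by this difference varied with the processing. It was 15th with the blank mean subtracted and in the authors' deposited table. With the local background subtracted it was 36th, and in normexp with the local background 4th. The ratio of net signals in diabetic callus, day 11 over day 5, was 25.1, and that in the authors' deposited table was 21.5. Both of these signals lie well above the blank-spot mean, but the local background column read 78.1% of the spot on day 11 and 85.6% on day 5. Over the settings tried, the log2 difference lay between 4.38 and 5.45. That range is narrower than those of the differences against control callus, 5.37 to 9.77 on day 11 and 0.86 to 5.98 on day 5. In control callus the log2 signal was 6.05 on day 11 and 5.92 on day 5, a difference of 0.13 or 1.09-fold, with 2885 of 16893 genes further apart in that direction. Of all genes compared, 1.04% in diabetic and 0.965% in control callus were 2-fold or more higher on day 11. The net signal of control callus was 14.8 on day 11 and 8.61 on day 5, which is 1.71 times. The sign of the control difference turned when the local background column was used, at -0.13 after its subtraction and -0.01 in normexp. The control levels of the days, which are neighbours in the order of the arrays, were therefore not told apart.

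The difference between diabetic and control callus was larger on day 11 than on day 5 by 4.25 on the log2 scale, which comes from differences of 7.41 and 3.15. Col10a1 was placed ninth by this change among 16101 genes above the limit in both comparisons, whose highest value was 5.85. With 1 array per group this change was not tested, and it follows from the choice of the gene. It lay between 3.73 and 5.57 under the other ways of processing.

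**Figure D3:**
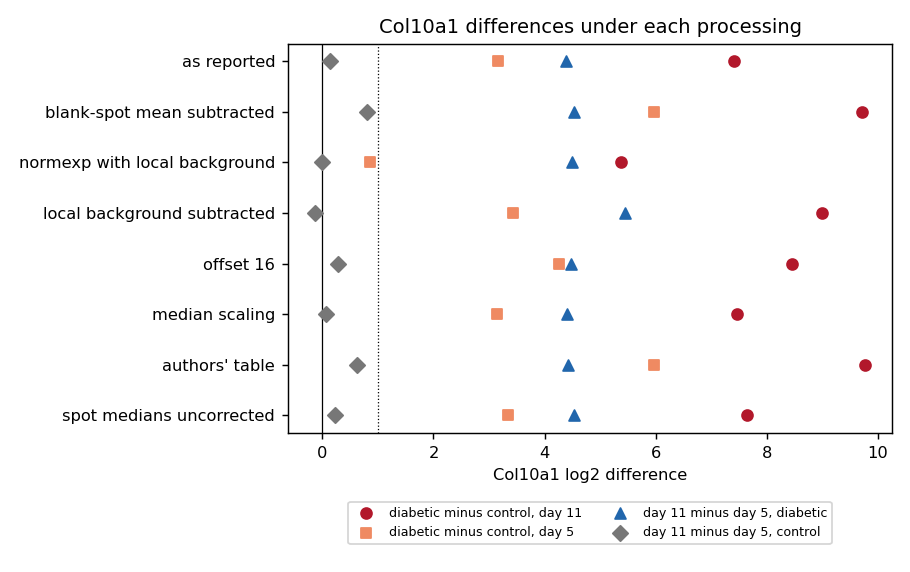
Log2 differences of Col10a1 under each way of processing the 4 arrays, 1 row per setting, with a solid line at 0 and a dotted line at 2-fold. The day 11 diabetic minus control difference lies between 5.37 and 9.77 and the diabetic day difference between 4.38 and 5.45, while the day 5 diabetic minus control difference spans 0.86 to 5.98 and the control day difference lies between -0.13 and 0.80.

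The probe has a single spot, so repeats of the same probe could not be used. The spots around it were read, although they carry other probes and cannot stand in for repeats. All 8 adjoining spots carry gene probes. Their median intensities lay between 40.1 and 1296 over the 4 arrays. For each of them the brightest array was 1.05 to 1.48 times the dimmest, against 234 times for Col10a1. None of the 8 was brightest in diabetic callus on day 11. The signal at the Col10a1 spot was thus not shared by the spots beside it. Whether a fault lay in the Col10a1 spot alone was not tested.

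**Figure D4:**
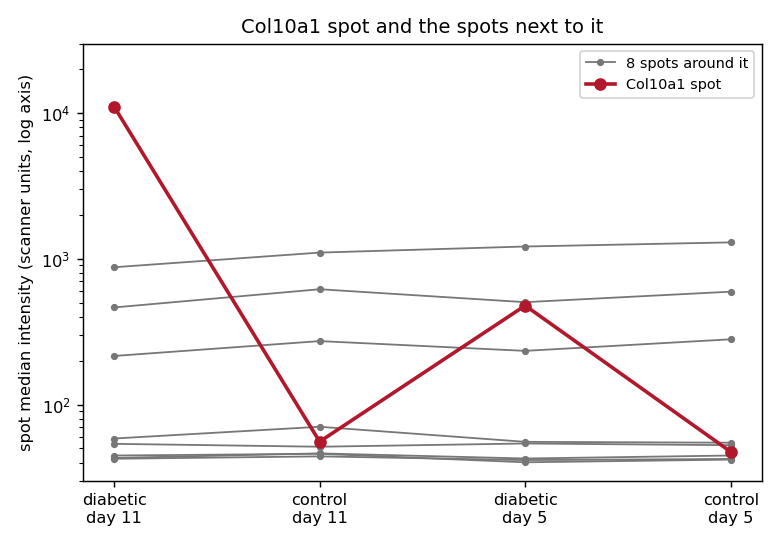
Median intensity in scanner units (log axis) of the Col10a1 spot (red) and of the 8 spots around it (grey) on the 4 arrays; each line joins the values of 1 spot. The grey lines are nearly level, with ratios of 1.05 to 1.48 between the brightest and dimmest array, while the red line spans 234 times.

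The local background column behaved otherwise. At the Col10a1 spot it read 8646 in diabetic callus on day 11, which is 78.1% of the spot itself, while at the 8 adjoining spots it read 35.5 to 749. In control callus on day 11 it read 50.5, or 90.7% of the spot. On day 5 it read 408.8 in diabetic callus, or 85.6% of the spot, and 42.1 in control callus, or 89.0%. Over all gene probes the local background had a median of 83.6% to 86.0% of its own spot, and over the 1031 to 1201 probes brighter than 1000 on an array a median of 59.5% to 71.9%. Subtracting this column therefore took away most of the intensity of bright spots too, and the blank-spot level was used in its place.

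Repeated spots give the technical error within an array. The first positive control, at 24 spots per array, had an SD of 0.12 to 0.17 on the log2 scale of the spot medians. The second positive control, also at 24 spots, had an SD of 0.37 to 1.23, with single spots as far apart as 5.66. These spots are bright and their spread leaves out the difference between animals and between hybridisations. No difference of Col10a1 was judged against it, since the gene was picked for its differences.

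Of the genes with a control signal like that of Col10a1, no other reached its level in diabetic callus. A net signal of 5 to 20 on both control arrays was found for 2501 genes. Their net signal in diabetic callus had a median of 9.05 on day 11, with 95% of them at or below 21.3, and a median of 7.72 on day 5, with 95% of them at or below 17.9. Col10a1 was the highest of them on both days. On day 11 the next genes stood at 2651 and 657, and 13 genes in all exceeded 100. On day 5 the next stood at 50.9, and Col10a1 alone exceeded 100. Because the gene was chosen for this contrast, its place describes the choice.

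The same contrast can be viewed from the bright end. In diabetic callus on day 11, 23 other genes had a net signal of 10000 to 12000. In control callus on day 11 these 23 had a median net signal of 11654 and a lowest of 1622, against 14.8 for Col10a1. In diabetic callus on day 5 their median was 11263 and their lowest 4741, against 439.2 for Col10a1. In control callus on day 5 their median was 11834 and their lowest 583, against 8.61 for Col10a1. Most genes this bright in diabetic callus on day 11 were thus of about equal brightness on every array. Col10a1 was chosen for a control signal near background beside a strong diabetic signal, so its place below them describes the choice.

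The genes with a pattern most like that of Col10a1 were taken by the Euclidean distance between log2 profiles over the 4 arrays, each profile centred on its own mean. The 240 candidates other than Col10a1 were above the blank-spot limit in diabetic callus on day 11 and spanned at least 2 on the log2 scale over the arrays. The 10 nearest lay at distances of 1.01 to 2.40, with a Pearson r of 0.921 to 0.996 over 4 arrays, which share hybridisation and scaling and are too few for a test. All 10 were brightest in diabetic callus on day 11, against 90 of the 240 candidates, and 9 of the 10 had diabetic callus on day 5 as their next array. Both counts follow from picking the nearest profiles. The order of the control arrays was not compared, since it was not settled for Col10a1.

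The nearest was ENSRNOG00000009531, at a distance of 1.01. Its net signal on day 11 was 16216 in diabetic and 207 in control callus, and on day 5 it was 883 in diabetic and 100.5 in control callus. Between diabetic and control callus it differed by 6.03 on day 11 and by 2.81 on day 5 (log2). The next was ENSRNOG00000016606, at a distance of 1.13. Its net signal on day 11 was 7167 in diabetic and 43.3 in control callus, and on day 5 it was 200.5 in diabetic and 10.2 in control callus. The log2 differences of this gene between diabetic and control callus were 6.29 (day 11) and 2.15 (day 5). Both were brightest in diabetic callus on day 11 and next in diabetic callus on day 5, and both had a higher net control signal than Col10a1 on each day. Neither identifier could be paired with a gene symbol.

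The 10 genes parted mostly on day 5. Their diabetic minus control log2 differences were 5.15 to 6.29 on day 11, below the 7.41 of Col10a1, and all 10 were past 2-fold, which the choice by profile brings about. On day 5 they were 0.54 to 5.43 with a median of 1.60, and 6 of 10 were past 2-fold, where 0.534% of all genes were. The profile used to pick them includes the day 5 arrays, so nothing is read from this count. Between the days, day 11 minus day 5, they differed by 2.02 to 6.06 in diabetic callus and by -0.60 to 1.80 in control callus, where 2 were past 2-fold, against 0.965% of all genes. The list depends on the measure of likeness: ranking by Pearson r shared 2 of the 10 genes, the authors' deposited table shared 9, and normexp with the local background shared 6.

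**Figure D5:**
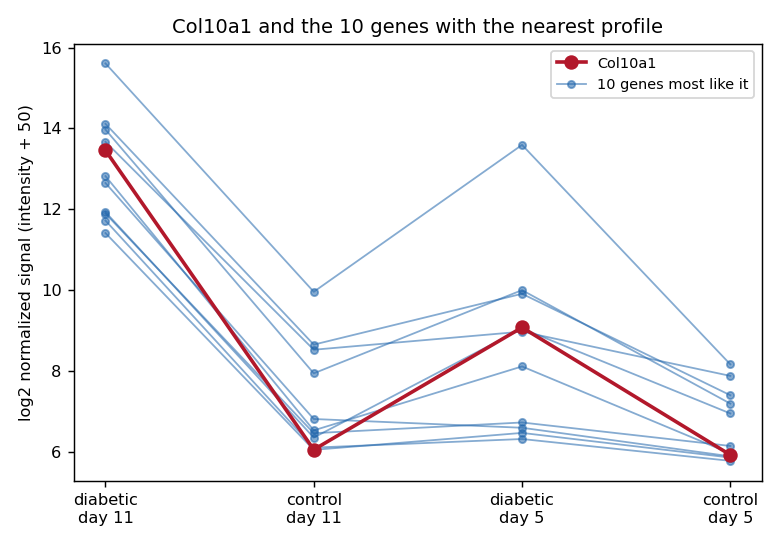
Log2 normalized signal (intensity + 50) of Col10a1 (red) and of the 10 genes with the nearest profile (blue) on the 4 arrays, 1 line per gene. All lines peak in diabetic callus on day 11, and the blue lines differ most in diabetic callus on day 5.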

How the data were processed

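Each of the 4 arrays was read in 1 colour (Cy5), per the labels. Per the file headers, an array file gives 27456 spots, each with a median intensity and a local background intensity, together with quality flags at 3 scanner gains. How gains were combined is not given in the sources used here. The authors' deposited table holds linear intensity values that followed the spot medians less the mean of the blank spots, scaled per array. From the spot medians, normexp (limma 3.58.1, R 4.3.3, offset 50) was run with the blank-spot mean as background, and 20161 genes without bad flags (13 left out) were quantile normalized and put on the log2 scale. A gene was above the blank-spot limit if it exceeded the mean plus 2 SD of blank spots after 5% trimming at each end. Comparisons used genes above it on at least 1 array, with 2-fold as the call and no p-value, since each group is 1 array. Col10a1, the rules for the genes named and the lists were chosen with earlier results of these data known. The rule names Col10a1 and the 10 genes of nearest profile. It also names those just above and below Col10a1 when ranked by the day 11 diabetic minus control difference. The neighbouring values of the day 5 ranking were given beyond this rule. The 13 gene lists were not applied, since 0 identifiers matched the 47357 genes of the reference table (GRCr8). The counting of genes past 2-fold was tried on data simulated from 1 array, with changes put only on genes well above the blank level. It therefore does not cover signals as dim as that of Col10a1 in control callus. Alternatives in background, offset, scaling, limit and filter were tried.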

Additional observations from a re-analysis of the deposited data

How the results depend on the processing

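No paired analysis was possible because each group has 1 array. The day 11 diabetic minus control log2 difference of Col10a1, 7.41 as reported, was 9.71 with the blank mean subtracted, 5.37 in normexp with the local background, 9.001 with the local background subtracted, 8.45 with an offset of 16 and 9.77 in the authors' deposited table. In the same order of settings the day 5 difference, 3.15 as reported, was 5.98, 0.86, 3.43, 4.25 and 5.97, so that it fell under 2-fold in normexp with the local background. The diabetic day difference, 4.38 as reported, was 5.45 with the local background subtracted, and the change of the diabetic minus control difference between days, 4.25 as reported, was 5.57. The control day difference, 0.13 as reported, was 0.80 with the blank mean subtracted. Median scaling and uncorrected spot medians, the latter chosen after seeing the data, moved none of these log2 differences by more than a 1.5-fold change in the fold. The negative control limit changes only which genes are compared, so it could not move them. The control day difference, which is near 0, was 0.07 with median scaling and 0.23 with uncorrected spot medians.

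The counts of genes at least 2-fold higher varied more. In diabetic against control callus they were, on day 11, 362 as reported, 1384 with the blank mean subtracted, 2755 with the local background subtracted, 554 with an offset of 16 and 1211 in the authors' table. On day 5 they were 91 as reported, and in the same order 675, 2395, 147 and 497, with 362 in normexp with the local background. On day 11 over day 5 in diabetic callus they were 174 as reported, 799, 2630, 263 and 571, with 375 in that normexp. In control callus they were 163 as reported, 766, 2167, 266 and 485, with 304 in that normexp. With either use of the local background, the place of Col10a1 by brightness was 156th in diabetic callus on day 11 and 3876th on day 5, against 87th and 2008th as reported. No setting gives an error between animals, and the signal over background limits the control values.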
